A study of Mus musculus with 2 samples.

Results

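The genes described here encode the MHC class I molecules and the machinery that loads peptides onto them, in polyA-selected RNA of a mouse tissue labelled large intestine. Members were the genes whose GENCODE symbol was B2m, H2-K1, H2-D1, H2-Q1, H2-Q2, H2-T3, H2-T23, Tap1, Tap2 or Tapbp, and all 10 were found among the 43346 genes of both deposited gene tables. The study has 1 group: adults of the inbred strain C57BL/6J, 8 weeks old, with no treatment or engineered allele given in the labels. It has 2 biological replicates, each a pool of males and females of the same litters, and both are filed under the same donor record, so the spread between them may hold little of the spread between unrelated animals. No source used here states how many animals made up a pool. Libraries were stranded, read as pairs of 76 nt, from RNA longer than 200 nt, and held 50189619 expected counts (replicate 1) and 58233142 (replicate 2). The members took 303196 and 320847 of these.

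A class I molecule is a heavy chain that needs the small light chain B2m, beta-2 microglobulin, and a bound peptide to be stable at the cell surface. Proteasomes make the peptides, the Tap1 and Tap2 transporter moves them into the endoplasmic reticulum, and tapasin, the product of Tapbp, holds the empty heavy chain at the transporter until a peptide is bound. H2-K1 and H2-D1 encode classical heavy chains, which show peptides to CD8 T cells. The genes of the Q and T regions encode non-classical chains, among them Qa-1 (H2-T23), which shows leader peptides of other class I chains to the inhibitory receptor made of Klrd1 and Klrc1, and the TL antigen (H2-T3), which is known from intestinal epithelium and binds CD8 alpha chains without a peptide. Interferon gamma raises transcription of most of these genes through factors that include Irf1 and Nlrc5.

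With a single group there was no condition to test. Each value is therefore given for each library, a difference is 1 library against 1 and has no p-value, and counts of members are given beside the share of all genes. The libraries stood apart in genes of gut region and cell type. The colonocyte markers Car1, Aqp8 and Atp12a summed to 0.28 TPM (a level per transcript length, scaled to the same total in each library) and 0.32 TPM in replicates 1 and 2, with none of the 3 genes at 0 counts. Markers of small intestine enterocytes summed to 2004 and 5459 TPM, a rise that came from Fabp6 alone, at 477.37 and 5278.56 TPM. The other 3 were higher in replicate 1, as were 66.5% of all genes with a mean of at least 1 TPM. Lct was at 151.71 and 9.94 TPM, Sis at 281.05 and 79.72 TPM and Apoa4 at 1094.32 and 91.11 TPM. Paneth cell markers summed to 9787 and 16786 TPM. These markers go against the label, which is kept here only as a label.

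The heavy chains are close relatives, which matters for how reads are divided among them. Exon 2, which encodes the alpha-1 domain that forms 1 wall of the peptide groove, was 270 nt long in all 6 heavy chain genes. Its opening 60 bases are shown 5′ to 3′ from GRCm38.p6 with the exon ends of GENCODE M21, with capitals at the bases that differ from H2-K1. The stretches lie at chr17:33999944-34000003 (minus strand) for H2-K1, chr17:35263379-35263438 (plus) for H2-D1, chr17:35320821-35320880 (plus) for H2-Q1, chr17:35342600-35342659 (plus) for H2-Q2, chr17:36032363-36032422 (minus) for H2-T23 and chr17:36189811-36189870 (minus) for H2-T3.
H2-K1: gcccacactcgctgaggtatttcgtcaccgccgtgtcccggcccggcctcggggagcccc
H2-D1: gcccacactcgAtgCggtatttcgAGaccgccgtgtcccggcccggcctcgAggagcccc
H2-Q1: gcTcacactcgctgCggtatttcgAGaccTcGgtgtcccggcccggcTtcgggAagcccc
H2-Q2: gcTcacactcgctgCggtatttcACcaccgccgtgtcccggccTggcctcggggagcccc
H2-T23: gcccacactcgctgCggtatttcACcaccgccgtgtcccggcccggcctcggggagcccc
H2-T3: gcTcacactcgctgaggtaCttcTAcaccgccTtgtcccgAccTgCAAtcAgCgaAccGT
Over the whole exon H2-D1 differed from H2-K1 at 24 of 270 bases, H2-Q1 at 33, H2-Q2 at 34 and H2-T23 at 36. H2-T3 differed at 71 and was the most distant of the 6 from each of the others. Identity between pairs ran from 67.8% (H2-T23 and H2-T3) to 91.1% (H2-K1 and H2-D1).

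Long shared runs were few all the same. Of the 76-nt windows, the length of a read, in the leading transcript of H2-T3, none occurred in a transcript of another gene, and the same held for B2m, Tap1 and Tap2. The share was 0.927% for H2-Q2, 0.956% for Tapbp, 1.42% for H2-K1, 6.81% for H2-D1, 12.8% for H2-T23 and 17.7% for H2-Q1. H2-Q1 shared most with H2-Q2 (8.83% of its windows) and H2-D1 (5.80%), the largest share among the members. These shares are of the leading transcript alone. Over all transcripts of a gene the share was 7.88% for H2-Q2, far above that of its leading transcript. It was 3.39% for H2-K1, 5.33% for H2-D1, 5.77% for H2-T23 and 10.8% for H2-Q1. The pairing of reads, which lengthens what is compared, was not modelled.

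The promoters were read next, because the members share known regulators. RefSeq promoters on GRCm38.p6 (250 bases before the start site to 50 after) were found for 8 of the 10 members, not for H2-Q1 and Tap2. The upstream bases of B2m and H2-K1 that lie outside every annotated exon are shown, as the light chain and the heavy chain with the highest level. Capitals mark matches to the interferon-stimulated response element, written as GAAANNGAAA, and to the kappaB consensus, both searched on both strands. The B2m stretch is chr2:122147437-122147685 (plus strand) and the H2-K1 stretch chr17:34000348-34000597 (minus strand).
B2m: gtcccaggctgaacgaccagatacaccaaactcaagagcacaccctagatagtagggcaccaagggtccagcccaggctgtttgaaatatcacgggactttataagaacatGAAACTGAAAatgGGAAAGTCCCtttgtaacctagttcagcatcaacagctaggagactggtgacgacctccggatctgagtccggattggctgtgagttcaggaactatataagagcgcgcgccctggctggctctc
H2-K1: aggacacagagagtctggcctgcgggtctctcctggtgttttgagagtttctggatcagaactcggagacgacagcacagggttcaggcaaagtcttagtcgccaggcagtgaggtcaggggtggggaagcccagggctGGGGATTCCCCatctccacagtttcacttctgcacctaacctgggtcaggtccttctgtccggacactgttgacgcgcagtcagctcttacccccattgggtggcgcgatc
In B2m the response element match spans positions -139 to -130 from the start site, and the kappaB match GGAAAGTCCC spans -126 to -117. H2-K1 has kappaB matches that overlap each other on both strands from -111 to -101, and H2-D1 has the same matches from -171 to -161. The response element was matched in 2 of 8 members, B2m and H2-T23 (-124 to -115, reverse strand), against 3.49% of all 27025 promoters in the table. The kappaB consensus was matched in 3 of 8 against 8.18%, and both together in B2m alone against 0.241%. CCAAT was matched in 7 of 8 against 37.9%, and TGACG, the core of the X2 box, in B2m, H2-K1, H2-D1 and Tap1 against 21.02%. Upstream bases outside every annotated exon were found for 5 of the 8 promoters. H2-D1 was not among them, so its kappaB matches lie in annotated exon sequence. In H2-T23 the longest such run spanned -250 to -155, and its response element match lies outside that run, nearer the start site. A match describes these letters and is not evidence of binding. Only exact matches to each pattern were counted, so a promoter without a match, such as that of H2-K1 for the response element, may still hold a variant of it.

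Both libraries held at least 1 TPM of each of the 10 members, and of 29.9% of all genes. Together they took 0.529% and 0.421% of all TPM in replicates 1 and 2. The light chain B2m (ENSMUSG00000060802.8, chr2:122147686-122153083, plus strand) had a level of 1412.54 TPM in replicate 1 and, in replicate 2, of 1117.14 TPM, a mean of 1265 ± 209 TPM (SD, n = 2). Its level was thus higher in replicate 1, 1.26-fold, and the deposited TPM bounds, from 1386 to 1413 and from 1099 to 1121, did not overlap. No source used here states the level of confidence of these bounds. They cover the division and counting of reads within a library, not the spread between animals. B2m ranked 99 among the 43346 genes by mean TPM.

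Among the classical heavy chains, H2-K1 (ENSMUSG00000061232.11, chr17:33996017-34000347, minus strand) was at 1547.67 and 1341.63 TPM in replicates 1 and 2, or 1445 ± 146 (SD, n = 2). It had the highest level of the 10 members in both libraries and ranked 87 of all genes. H2-D1 (ENSMUSG00000073411.7, chr17:35262730-35267499, plus strand) was at 924.77 and 872.43 TPM, or 898.6 ± 37.0 (SD, n = 2), the smallest difference among the members at 1.06-fold. The ratio of H2-K1 to H2-D1 was 1.67 and 1.54. Together they held 70.1% and 78.9% of the TPM of the 6 heavy chains described here.

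The non-classical chains ranged widely. H2-T23, the Qa-1 gene (ENSMUSG00000067212.8, chr17:36029773-36032855, minus strand), was at 431.38 and 315.96 TPM in the same order, or 374 ± 81.6 (SD, n = 2). H2-Q2 (ENSMUSG00000091705.4, chr17:35342242-35346762, plus strand) was at 477.85 and 200.78 TPM, or 339 ± 196 (SD, n = 2). H2-Q2 was therefore above H2-T23 in replicate 1 and below it in replicate 2, and their order is not settled by these libraries. The replicate 2 level of H2-Q2 fell within the range of Tapbp.

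H2-T3, the TL antigen gene (ENSMUSG00000054128.12, chr17:36185572-36190287, minus strand), was at 106.32 and 61.8 TPM in replicates 1 and 2, or 84.06 ± 31.5 (SD, n = 2). H2-Q1 (ENSMUSG00000079507.6, chr17:35320405-35325099, plus strand) had the lowest level, 38.95 and 13.58 TPM, or 26.3 ± 17.9 (SD, n = 2). Both were higher in replicate 1. H2-T23 exceeded H2-T3 4.06-fold and 5.11-fold, and H2-Q2 exceeded H2-Q1 12.3-fold and 14.8-fold, so within each region the order was the same in both libraries.

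The 6 heavy chains summed to 3526.94 and 2806.18 TPM, or 3167 ± 510 (SD, n = 2). The sum was 2.497 times the TPM of B2m in replicate 1 and 2.512 times in replicate 2, a mean of 2.50 ± 0.0106 (SD, n = 2). H2-K1 alone was 1.096 and 1.201 times B2m. These ratios are of transcript levels and say nothing of the proteins.

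For the peptide transporter, Tap1 (ENSMUSG00000037321.13, chr17:34187553-34197225, plus strand) was at 95.22 and 66.18 TPM in replicates 1 and 2, or 80.7 ± 20.5 (SD, n = 2). Tap2 (ENSMUSG00000024339.8, chr17:34203527-34216321, plus strand) was at 42.74 and 36.8 TPM, or 39.8 ± 4.2 (SD, n = 2). Tap1 lay above its partner in both libraries, 2.23-fold and 1.80-fold. Tapbp (ENSMUSG00000024308.10, chr17:33915899-33929292, plus strand) was at 215.59 and 184.65 TPM, or 200.1 ± 21.9 (SD, n = 2), which is 2.26 and 2.79 times Tap1. The genes of both transporter chains flank the immunoproteasome gene Psmb8 (chr17:34197721-34201454). Psmb9 (chr17:34181987-34187764, minus strand) overlaps the start of Tap1 on the opposite strand, where stranded reads can tell them apart if counting used strand, which the sources used here do not give.

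In order of mean TPM the members ran H2-K1, B2m, H2-D1, H2-T23, H2-Q2, Tapbp, H2-T3, Tap1, Tap2 and H2-Q1. Neighbours overlapped in their ranges over the libraries at 5 places: H2-K1 and B2m, H2-T23 and H2-Q2, H2-Q2 and Tapbp, H2-T3 and Tap1, and Tap2 and H2-Q1. H2-T3 and Tap1 also changed places, as H2-T23 and H2-Q2 did. B2m and H2-D1, H2-D1 and H2-T23, Tapbp and H2-T3, and Tap1 and Tap2 were separated in both libraries.

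**Figure D1:**
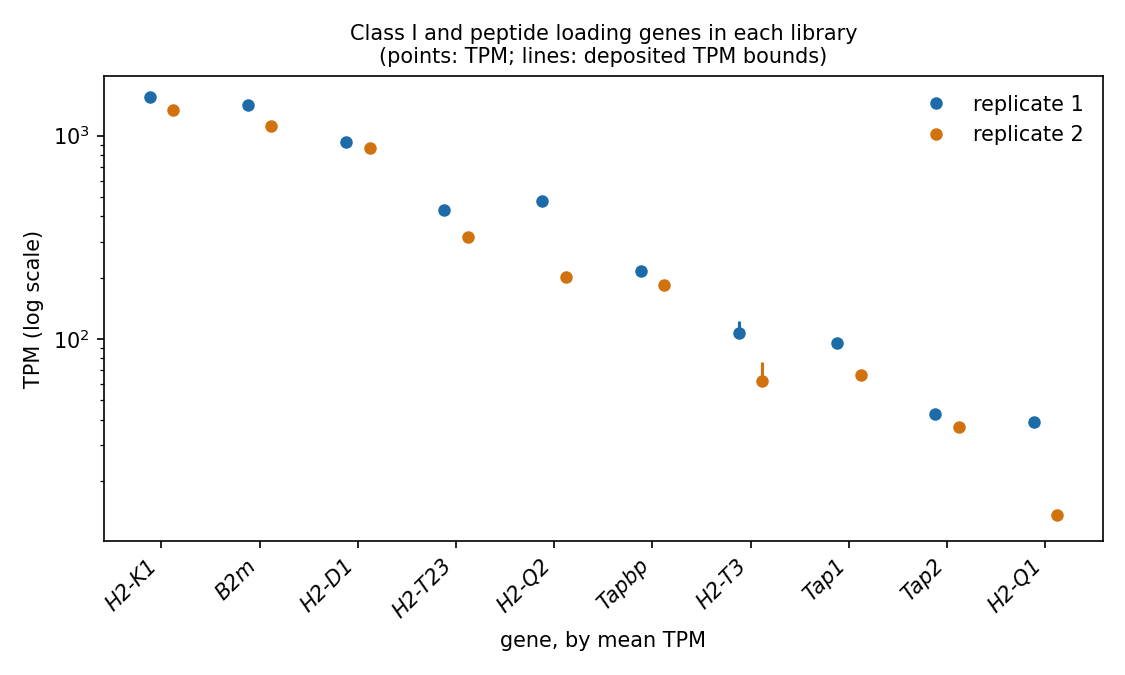
TPM on a log scale (vertical axis) of the 10 genes (horizontal axis, by mean TPM) in replicate 1 and replicate 2, with lines for the deposited TPM bounds. H2-K1 and B2m stand at the top, with means of 1445 and 1265 TPM, H2-Q1 at the bottom at 38.95 and 13.58 TPM, and H2-Q2 and H2-Q1 show the widest gaps between libraries.

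All 10 members were higher in replicate 1 on the TPM scale, of which H2-D1 turned under other scalings, and the direction was shared by 66.5% of the 13512 genes with a mean of at least 1 TPM. The deposited bounds did not overlap in 10 of 10, against 56.9% of all genes, and 42.2% of genes had bounds apart with replicate 1 higher. Bounds are narrow where reads are many, and those of H2-D1 were apart at 1.06-fold. The members had between 1673 and 107110 expected counts, and the genes they are set against were not matched for level. The log2 ratio of replicate 2 to replicate 1, computed on TPM + 1, had a median of -0.14 over all genes and -0.39 over the members, and 9 of 10 members lay below the median of all genes. H2-D1, at -0.08, was the exception. Under FPKM, the median rescaling and the count-based scalings the median of all genes moved to between 0.00 and 0.03. H2-D1 then had a ratio between 0.08 and 0.10, higher in replicate 2, while the other 9 members stayed below 0. Some of them were then close to 0: H2-K1 lay between -0.04 and -0.008, Tap2 between -0.05 and -0.02 and Tapbp between -0.11 and -0.05. For H2-K1 and Tap2 these ratios are smaller than that of H2-D1, so a direction is not settled.

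A difference of at least 2-fold was found for 2 of the 10 members, H2-Q1 and H2-Q2, against 5.64% of all genes. Both were higher in replicate 1, as were 4.46% of all genes, while 1.18% were at least 2-fold higher in replicate 2. H2-Q1, at 2.87-fold, had a log2 ratio of -1.45, and 1.70% of genes had a lower one. H2-Q2, at 2.38-fold, had -1.25, with 2.46% of genes lower. H2-Q1 shared 8.83% of the windows of its leading transcript with H2-Q2, so the 2 calls may not be separate. The part of shared reads in them was not tested. These neighbours in the Q region follow H2-D1 along the chromosome, which differed 1.06-fold, and the ratio of H2-Q2 to H2-D1 was 0.517 in replicate 1 and 0.230 in replicate 2. The estimated reads behind the values fell in the same direction, from 3532 to 1673 for H2-Q1 and from 21759 to 11797 for H2-Q2, although the replicate 2 library was the deeper.

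The next largest log2 ratios were those of H2-T3 (-0.77), Tap1 (-0.52), H2-T23 (-0.45) and B2m (-0.34). A lower ratio was found for 8.45% of genes in the case of H2-T3 (1.72-fold higher in replicate 1), 17.8% for Tap1, 22.02% for H2-T23 and 30.5% for B2m. Tapbp (-0.22), Tap2 (-0.21) and H2-K1 (-0.21) lay near the median of all genes. Since 2 libraries give a single ratio, many genes share each pattern: between 66 genes (for H2-Q1) and 3067 (for H2-D1) had a log2 ratio within 0.1 of the member's, and none is named as alike.

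Markers of several cell types lay in the same direction as the members on the TPM scale, where 66.5% of all genes were higher in replicate 1. All 5 epithelial markers were higher in replicate 1, with a sum of 5170 and 3843 TPM. They included Vil1, a brush border protein, at 793.84 and 380.85 TPM and the keratin Krt8, which differed least, at 2892.66 and 2590.83 TPM. All 3 endothelial markers were higher in replicate 1 as well (31.3 and 23.5 TPM in sum). The 4 dendritic cell markers summed to 10.2 and 6.77 TPM, most of it from Itgax at 7.39 and 4.53 TPM. Only 2 of the 4 had a mean of at least 1 TPM, and the second, Zbtb46, was at 1.32 and 1.31 TPM. Plasma cell markers summed to 19518 and 9791 TPM, with all 4 higher in replicate 1, and B cell markers to 85.97 and 134 TPM, with all 4 higher in replicate 2. Markers of all leukocytes summed to 214 and 221 TPM, of T cells to 42.9 and 45.3 TPM and of macrophages to 280 and 285 TPM, but single genes of these lists differed more than the sums. Ptprc was at 18.34 and 10.26 TPM, Csf1r at 26.69 and 17.6 TPM and Adgre1 at 7.25 and 4.35 TPM, all higher in replicate 1, while the abundant Lyz2 was at 230.86 and 246.55 TPM. These lists were mixed in direction. Of the leukocyte markers 1 was higher in replicate 1 and 2 in replicate 2, of the T cell markers 2 and 4, and of the macrophage markers 2 and 2. The part of cell makeup in the members' differences was not tested. In bulk tissue, fewer cells of a type and less RNA per cell cannot be told apart.

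**Figure D2:**
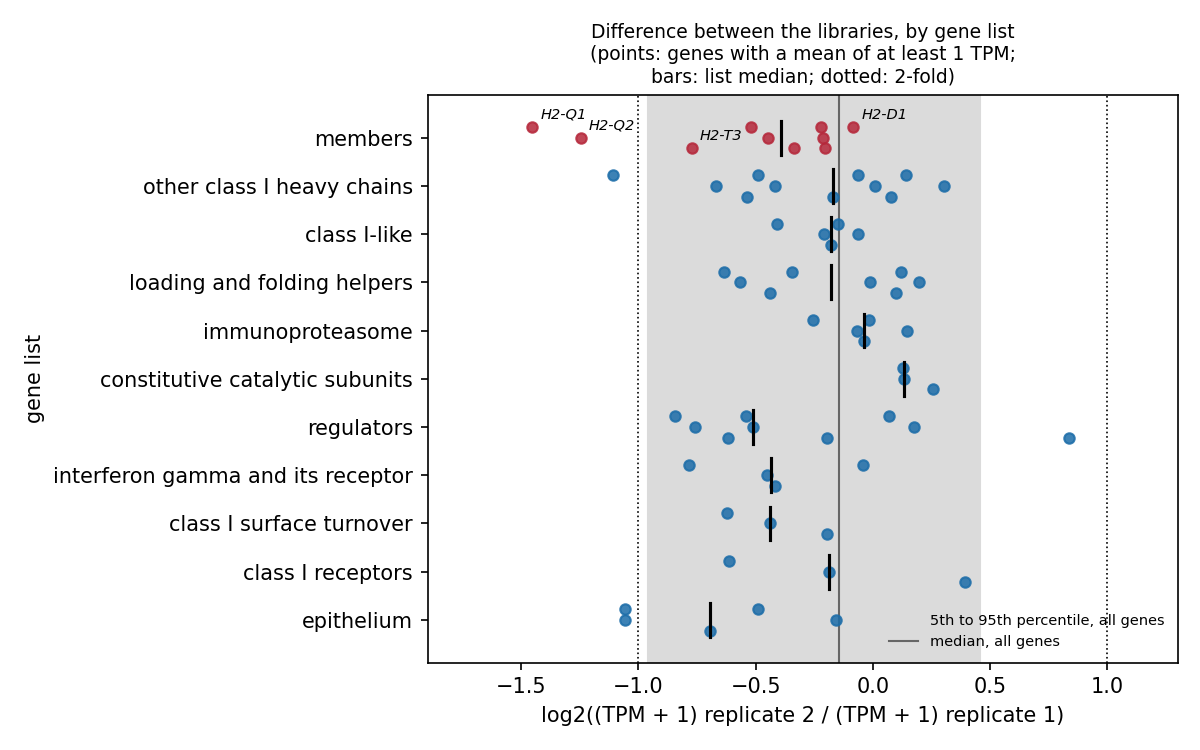
Log2 ratio of replicate 2 to replicate 1 on TPM + 1 (horizontal axis) for genes with a mean of at least 1 TPM in each list (vertical axis), with list medians as bars, 2-fold as dotted lines and the middle 90% of all genes shaded. H2-Q1 at -1.45 and H2-Q2 at -1.25 lie past 2-fold, H2-D1 at -0.08 sits nearest 0 among the members, and the constitutive catalytic subunits lie to the right of 0.

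The transcript tables divide each gene's TPM among its annotated transcripts. The members had 50 transcripts, of which 6 were at 0 counts in both libraries, and 9 members had more than 1. In 9 of these 9 the same transcript led in both, against 88.4% of the 6651 genes that had several transcripts and averaged 5 TPM or more. It was a protein-coding transcript in 8 of the 10 members. B2m has a single transcript, H2-D1-202 held 98.0% and 97.85% of H2-D1, and H2-K1-201 held 87.71% and 88.69% of H2-K1. The coding transcript H2-T23-201 held 86.55% and 85.58% of H2-T23.

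Tap2 was led by a transcript annotated as retained intron, the case for 4.77% of all genes tested. Tap2-202 held 84.77% and 86.1% of the gene's TPM (36.23 and 31.69 TPM), and the coding Tap2-201 held 14.89% and 13.9% (6.36 and 5.12 TPM). Tap2-202 is 2561 nt long, has 11 exons and covers 162 nt of the introns of Tap2-201, which has 3442 nt and 12 exons. Only 232 of the 2486 windows of 76 nt in Tap2-202 are not in Tap2-201, against 1113 of 3367 found only in Tap2-201. The division between the forms therefore rests on these parts of the transcripts, most of them parts that the coding form has and the retained form lacks. With coding transcripts alone, Tap2 was at 6.50 and 5.12 TPM and Tap1 at 79.03 and 57.24 TPM.

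H2-T3 was led by a transcript annotated for nonsense-mediated decay, the case for 1.86% of genes. H2-T3-206 held 47.38% and 43.68% of the gene, ahead of the coding H2-T3-201 (24.31% and 20.39%) and H2-T3-204 (17.33% and 22.56%). Its coding transcripts summed to 44.26 and 26.54 TPM. The deposited bounds of H2-T3 were 17.8% and 26.3% of its TPM wide, 4.198 and 5.450 times the width that the counting error of its reads would give, and for the other members this ratio lay between 0.99 and 1.61. H2-T3 is thus the member whose TPM the deposited bounds place least exactly, although it shares no window with another gene.

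In H2-Q1 the coding H2-Q1-202 led with 58.63% and 44.26%, and the retained intron transcript H2-Q1-203 held 33.3% and 42.44%. The coding transcripts of H2-Q1 came to 25.98 and 7.82 TPM. H2-Q2 had only coding forms, H2-Q2-201 with 81.42% and 71.75% and H2-Q2-202 with 18.58% and 28.25%. H2-Q2-201 was at 389.04 and 144.07 TPM in replicates 1 and 2. H2-Q2-202 differed less, at 88.8 and 56.71 TPM, and has 919 of its 1150 nt outside H2-Q2-201. In both genes the leading form took a smaller share in replicate 2, where the gene's level was lower.

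Tap1 was divided between the coding Tap1-206 (47.83% and 50.34%) and Tap1-201 (34.62% and 35.93%). In Tapbp the coding Tapbp-201 held 63.91% and 60.5%, and the retained intron transcript Tapbp-204 held 34.25% and 38.8%. Tapbp-204 is 614 nt long, so that its share of TPM came from 1313 and 1661 estimated reads, against 16350 and 17292 for Tapbp-201. Retained intron forms were small in the classical genes, at 2.16% and 2.52% of H2-K1 and 1.02% and 0.80% of H2-D1.

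**Figure D3:**
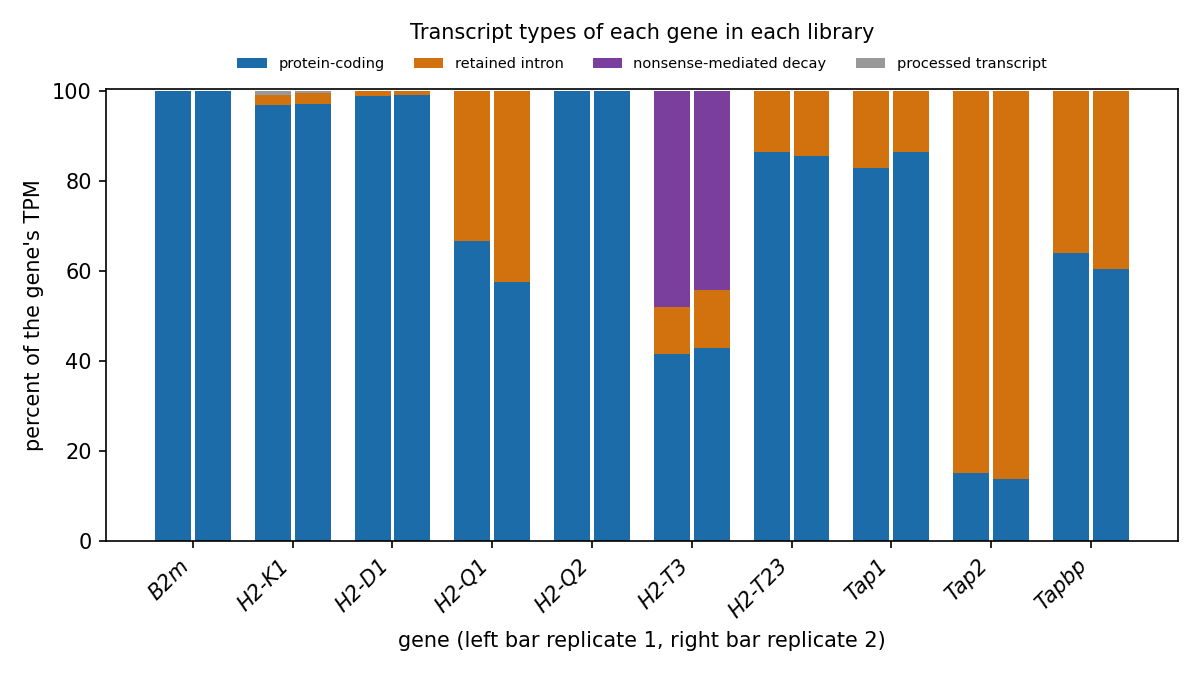
Percent of each gene's TPM (vertical axis) by annotated transcript type for the 10 genes (horizontal axis), replicate 1 at left and replicate 2 at right of each pair. Tap2 is mostly retained intron (84.77% and 86.1%), H2-T3 is the only one with a large share annotated for nonsense-mediated decay (47.87% and 44.17%), and B2m and H2-Q2 are wholly protein-coding.

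The rest of the pathway was read from 9 lists of 67 genes, of which 61 were matched. Of 13 other class I heavy chain genes matched, 11 had a mean of at least 1 TPM, 7 of them higher in replicate 1 and 4 in replicate 2, where 66.5% of all genes were higher in replicate 1. Their median log2 ratio was -0.17, near the -0.14 of all genes, or -0.004 with FPKM and -0.13 with TMM. The highest were H2-Q7, a Qa-2 gene, at 119.6 and 106.07 TPM and H2-Q4 at 92.48 and 65.63 TPM. H2-Bl, at 44.49 and 20.11 TPM, was the only one at least 2-fold apart, against 5.64% of all genes. H2-M5 and H2-M9 were below 1 TPM in both libraries. H2-Bl, H2-Q5 and H2-T10 are annotated as polymorphic pseudogenes and are counted here among the heavy chain genes. With these genes added, heavy chains summed to 3911 and 3120 TPM, and the 6 described here held 90.2% and 89.95% of it.

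**Figure D4:**
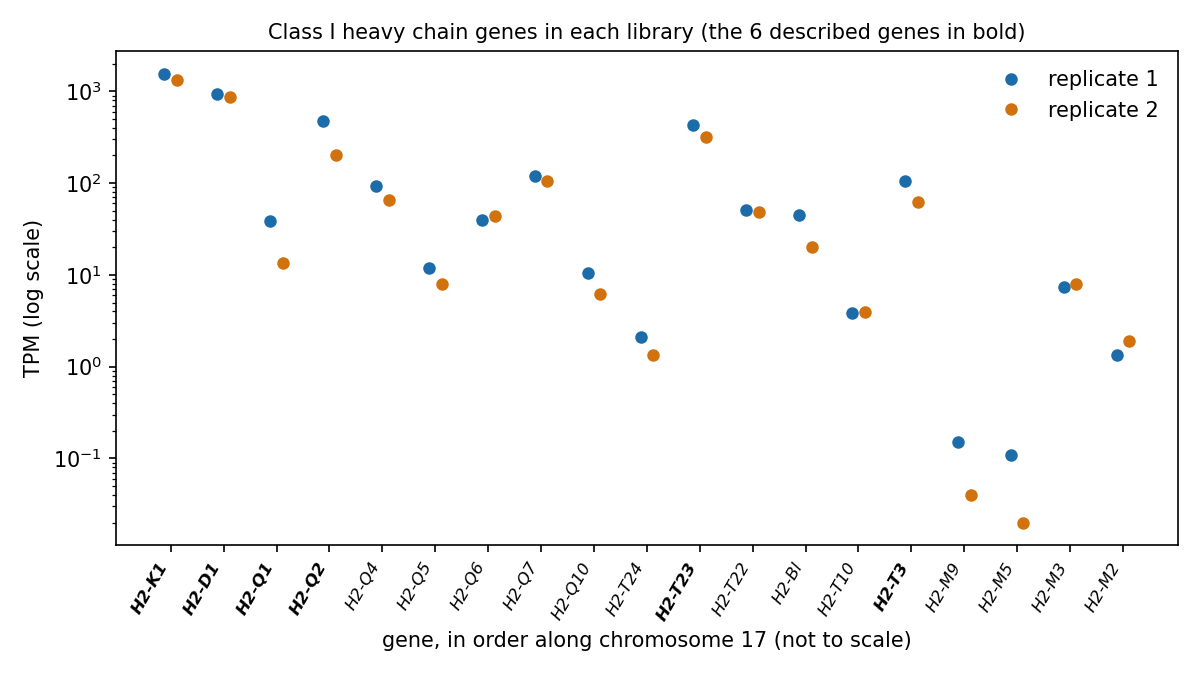
TPM on a log scale (vertical axis) of the 6 described heavy chain genes, in bold, and 13 others, in their order along chromosome 17 (horizontal axis, not to scale), in replicate 1 and replicate 2. H2-K1 and H2-D1 are highest, H2-T23 and H2-Q2 follow, and only H2-M9 and H2-M5 lie below 1 TPM in both libraries.

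Proteasome subunits make the peptides, and the interferon-induced Psmb8, Psmb9 and Psmb10 replace the constitutive Psmb5, Psmb6 and Psmb7. Psmb8 was at 321.48 and 306.97 TPM, 2.49 and 2.16 times Psmb5. Psmb10 was at 312.06 and 304.26 TPM, 4.18 and 3.41 times Psmb7. Psmb9, at 170.03 and 142.42 TPM, was the only one of the 3 below its counterpart, at 0.572 and 0.438 times Psmb6. The summed ratio of induced to constitutive subunits was 1.60 and 1.35, or 1.48 ± 0.175 (SD, n = 2). The constitutive subunits were all higher in replicate 2, with a median log2 ratio of 0.13, the opposite of the 10 members and of 66.5% of all genes on the TPM scale. The median of the 5 immunoproteasome genes, -0.04, turned to between 0.13 and 0.15 under FPKM, the median rescaling and the count-based scalings.

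Among the helpers of folding and loading, Pdia3, the thiol oxidoreductase ERp57 bound to tapasin, was at 478.76 and 353.28 TPM, and the chaperone Calr at 304.18 and 331.15 TPM. Of these 8 genes 5 were higher in replicate 1 and 3 in replicate 2, where 66.5% of all genes were higher in replicate 1. None was at least 2-fold apart, against 5.64% of all genes. Their median of -0.18 became -0.01 with FPKM and 0.05 to 0.07 under the count-based scalings. The largest ratio was that of Sel1l, of endoplasmic reticulum-associated degradation, at 31.2 and 19.76 TPM. Tapbp, at 200.1 TPM on average, lay below Pdia3 and Calr in both libraries.

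Of 9 regulators, 6 were higher in replicate 1 and 3 in replicate 2 on the TPM scale, where 66.5% of all genes were higher in replicate 1. Their median log2 ratio of -0.51 was -0.36 with FPKM and -0.13 with TMM. Irf1, an interferon-induced transcription factor, was at 204.63 and 140.26 TPM. Nlrc5, the class I transactivator, was at 10.91 and 9.40 TPM. Ifng itself was at 0.14 and 0.21 TPM, from 6 and 12 counts, while the receptor genes Ifngr2 (72.03 and 53.61 TPM) and Ifngr1 (55.5 and 53.88 TPM) were detected. Jak2, at 12.76 and 6.98 TPM, had the largest ratio of the interferon gamma list, whose median was -0.43, or -0.27 with FPKM and -0.26 with TMM. No gene of either list was at least 2-fold apart, against 5.64% of all genes.

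At the far end of the pathway, the 3 matched genes of class I turnover at the cell surface were all higher in replicate 1 on the TPM scale. That direction was shared by 66.5% of all genes. Their median log2 ratio of -0.44 was -0.27 with FPKM and -0.08 with TMM. Tmem127 was at 74.48 and 54.65 TPM, Wwp2 at 33.47 and 29.07 TPM and Susd6 at 28.61 and 18.23 TPM. Of 7 matched receptor genes for class I, Pirb (9.13 and 5.62 TPM), Cd8a (5.13 and 4.38 TPM) and Cd8b1 (2.08 and 3.05 TPM) had a mean of at least 1 TPM. Klrd1 and Klrc1, which form the receptor for the H2-T23 product, were below 1 TPM in both libraries, as were Klrk1 and Klrb1c. H2-T3, whose product binds CD8 alpha chains, was thus far above Cd8a in these libraries, at 106.32 and 61.8 TPM. Class I-like genes were led by Fcgrt, the neonatal Fc receptor chain that also pairs with B2m, at 60.95 and 58.29 TPM. Procr, the protein C receptor, was at 7.56 and 6.40 TPM and Mr1, which presents metabolites, at 1.55 and 0.92 TPM. Azgp1, Cd1d2 and Ulbp1 were below 1 TPM in both. The median log2 ratio of the class I-like list, -0.18, became -0.03 with FPKM and 0.01 to 0.03 under the count-based scalings.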

How the data were processed

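PolyA RNA of 2 libraries of 1 group was analysed from the deposited gene and transcript tables, made on mm10 with GENCODE M4 per the submitters' notes; no source used here names the aligner or quantifier. The authors deposited expected counts (estimated read pairs that need not be whole), TPM (corrected for effective length and scaled to the same total, spike-ins included), FPKM (per kilobase and depth), the percent of a gene's TPM per transcript, and bounds on TPM as a further signal column. Bounds need not hold the TPM: that of H2-K1 lay above its upper bound in both libraries and that of H2-D1 in replicate 1.

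Symbols, biotypes and positions came from GENCODE M21, matched on identifier without version (42462 of 43346 genes). Ratios divided TPM + 1 of replicate 2 by TPM + 1 of replicate 1, on the log2 scale, over 13512 genes with a mean of at least 1 TPM, which understates low genes, and 2-fold counted as apart. The step was checked on simulated data with planted changes well past 2-fold, which bears on its arithmetic and not on differences near 2-fold. Leading transcripts were compared over genes that had several transcripts and averaged 5 TPM or more. Counting widths used 1.96 standard errors of a Poisson count and cover counting error only. Of 50 member transcripts, 46 had the deposited length in M21.

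The members and lists were chosen with earlier results of these data known. All members are named, and of each pathway list the 2 genes of highest mean TPM, the 1 of largest ratio and those below 1 TPM. Nlrc5, Cd8b1, H2-Q5, H2-T10, Car1, Aqp8, Atp12a, Lct, Sis, Apoa4, Fabp6, Vil1, Krt8, Ptprc, Csf1r, Adgre1, Lyz2, Itgax and Zbtb46, outside that rule, were named after their values were seen. A gene that the rule names is not reported here. H2-T9, H2-Q8, H2-Q9, Marchf1, Marchf9 and Lilrb4a were not matched.

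Alternatives were posterior mean TPM, FPKM, other pseudocounts, minimums and rescalings, and leaving out each library. Expected counts were also scaled with TMM (edgeR 4.0.16) or size factors (DESeq2 1.42.0) in R 4.3.3. Both kinds of factor were computed on counts rounded to whole numbers and applied to the unrounded counts. Python 3.11.15, numpy 2.4.6, pandas 2.3.3 and matplotlib 3.10.9 did the rest. Junction and contig lists on mm9, alignments and signal tracks were not used here.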

Additional observations from a re-analysis of the deposited data

How the results depend on the processing

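All 10 members stayed detected with posterior means, with FPKM, with minimums of 0.5 and 5 TPM and in each library alone (10 to 10), and the same count of 2 members at least 2-fold apart was found under all 9 other scalings and pseudocounts. The median log2 ratio of the members, -0.39, moved to -0.22 with FPKM, -0.23 with TPM rescaled to the median gene, -0.42 without mitochondrial genes and spike-ins, -0.20 with CPM of the expected counts, -0.22 with TMM, -0.21 with DESeq2 size factors and -0.39 (-0.387 against -0.393) with a pseudocount of 10. The median of all genes moved with it, from -0.14 to 0.00 with FPKM and 0.01 with TMM, and 9 or, with a pseudocount of 10, 10 members lay below it. The split of all genes at least 2-fold apart was 603 higher in replicate 1 and 159 in replicate 2 on TPM, 412 and 199 with FPKM, 428 and 204 with the median rescaling, 343 and 159 with CPM, 356 and 157 with TMM and 354 and 157 with DESeq2 size factors. A pseudocount of 0.1 gave 907 and 228 (8.40% of genes) and a pseudocount of 10 gave 229 and 63 (2.16%). Without a filter on low values 1.85% of genes were at least 2-fold apart, since the many genes near 0 then count as tested. Leaving out each library gave 2806 to 3527 TPM for the summed heavy chains, 2.50 to 2.51 for their ratio to B2m and 1.35 to 1.60 for the proteasome ratio; a ratio between libraries cannot be recomputed that way. With windows of 50 nt instead of 76, the shared share of the leading transcript rose from 12.8% to 28.8% for H2-T23, from 17.7% to 23.8% for H2-Q1 and from 1.42% to 8.79% for H2-K1. No paired analysis was possible because there is only 1 group. The limits are 2 libraries with no condition, markers that go against the tissue label, bounds without a stated level, and gene models that decide how transcript shares are divided.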
